A study of Mus musculus with 48 samples.

Results

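The 10 genes described here encode chaperones and co-chaperones of the endoplasmic reticulum (ER) and their partners: *Hspa5*, *Hsp90b1*, *Hyou1*, *Calr*, *Canx*, *Dnajb9*, *Dnajb11*, *Dnajc3*, *Sdf2l1* and *Creld2*. They were chosen from the response of the liver to the dams' diet (HH *vs.* LH), so in that contrast their values are a description and carry no test. Every probe whose transcript accession mapped to 1 of the 10 symbols was taken, which gave 19 probes of 41174 on the array, for 10 of 18434 named genes. Each gene was followed through its brightest probe, the probe with the highest mean signal over all arrays, and the other probes are given beside it.

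Livers and whole colons of C57/BL6 mice were hybridised to 48 arrays of 2 colours, 24 per tissue, with the mouse RNA labelled Cy3 and a common mouse reference RNA labelled Cy5. The labels call this reference multi-organ RNA, while the study's methods describe a pool of intestinal and liver RNA of all its mice. Markers of pancreatic acinar cells lay below it on average, with group means of −2.94 to −2.06 in livers and −2.91 to −2.82 in colons. Which of the 2 descriptions holds was not tested. All dams received diet H, supplemented with selenium and folate, or diet L, marginally deficient in both, and their pups received H or L from weaning to 12 weeks of age. The study's methods place both nutrients above the recommended requirements in diet H and below them in diet L. The groups are named by dam diet and then pup diet. HH mice met diet H throughout, HL mice diet H through the dam and diet L after weaning, LH mice diet L through the dam and diet H after weaning, and LL mice diet L throughout. No untreated or chow-fed group was part of these arrays, selenium and folate always changed together, and the study's methods describe both diets as high in fat and the mice as fasted and re-fed before sampling. A liver group held 6 mice, except HH with 5, because 2 arrays carried the same HH mouse and were averaged, and a colon group held 6. The values are log2 ratios of mouse over reference, so a level of 0 means as much signal as that reference, whichever it was, and a difference of 1 means a 2-fold difference. No label tied a liver to the colon of the same mouse, and litters were not given. The study describes 6 male offspring per group and both tissues with n = 6. By that account each liver would share its mouse with a colon. Comparisons of tissues treated every liver and colon as a separate mouse, so their p-values ignore any such pairing.

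Proteins that enter the secretory pathway fold in the ER lumen, where BiP, the product of *Hspa5*, binds exposed hydrophobic stretches, holds them after ATP hydrolysis and releases them when ADP is exchanged for ATP. Its J-domain partners stimulate the hydrolysis, its nucleotide exchange factors remove the ADP, and the lectins calnexin and calreticulin hold glycoproteins that still carry a terminal glucose. When unfolded proteins accumulate, the sensors IRE1, PERK and ATF6 raise the transcription of these chaperones through the factors XBP1, ATF4 and cleaved ATF6, a response that is prominent in hepatocytes because they secrete most plasma proteins.

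The promoters of the genes are shown because most of them carry the short element through which this response acts. The ER stress response element (ERSE) was searched as the letters CCAAT, any 9 bases and CCACG, on both strands, from 250 bases before to 50 bases after each RefSeq start (build GRCm38.p6). Of the 10 genes, 9 had a promoter entry and *Hyou1* was not listed. The element stood in 6 of those 9 promoters, once in 5 of them and in 2 copies in *Hsp90b1*, against 39 of 32851 promoters of the table (0.119%), these 6 among them. The promoters are shown because of this element, so nothing is read from these shares. The copies read 5′ to 3′ with CCAAT and CCACG in capitals:
*Hspa5*: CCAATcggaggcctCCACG
*Hsp90b1*, far copy: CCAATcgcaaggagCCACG
*Hsp90b1*, near copy: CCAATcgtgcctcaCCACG
*Calr*: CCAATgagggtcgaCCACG
*Canx*: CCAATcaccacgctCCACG
*Dnajc3*: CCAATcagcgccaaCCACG
*Creld2*: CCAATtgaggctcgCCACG

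The *Hspa5* copy lay at chr2:34772025-34772043 on the plus strand, 65 to 47 bases before the start. The *Hsp90b1* copies lay at chr10:86705638-86705656 on the minus strand and at chr10:86705533-86705551 on the plus strand, the *Calr* copy at chr8:84847075-84847093 on the plus strand and the *Canx* copy at chr11:50325800-50325818 on the minus strand. *Dnajc3* held its copy at chr14:118937827-118937845 on the plus strand and *Creld2* at chr15:88819520-88819538 on the minus strand. In *Calr*, *Creld2* and the near copy of *Hsp90b1* the element ran against the direction of the gene. *Dnajb11* held the shorter ERSE-II (ATTGG, any 1 base, CCACG), present in 12 of the 32851 promoters (0.0365%), just after its start at chr16:22857852-22857862 on the plus strand:
*Dnajb11*: ATTGGcCCACG

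*Hspa5* also held the letters TGACGTG, the XBP1-type element, at chr2:34771933-34771939, a match found in 661 promoters (2.01%). *Dnajb9* and *Sdf2l1* held none of the 3 elements. The shortest part, CCAAT alone, was present in 9 of the 9 promoters and in 37.4% of all, and every ERSE contains it. The 250 bases before the start of *Hspa5*, of *Hsp90b1* with its 2 copies, and of *Dnajb9*, the gene whose brightest probe was lower in LH livers, are set out 5′ to 3′ along the gene, with the ends of each ERSE in capitals (a copy on the opposite strand reads CGTGG, 9 bases, ATTGG):
*Hspa5*: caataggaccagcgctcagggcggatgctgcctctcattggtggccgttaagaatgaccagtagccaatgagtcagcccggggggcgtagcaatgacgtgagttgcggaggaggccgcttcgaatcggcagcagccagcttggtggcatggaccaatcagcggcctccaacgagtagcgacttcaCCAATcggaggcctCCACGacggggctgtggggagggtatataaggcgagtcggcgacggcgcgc
*Hsp90b1*: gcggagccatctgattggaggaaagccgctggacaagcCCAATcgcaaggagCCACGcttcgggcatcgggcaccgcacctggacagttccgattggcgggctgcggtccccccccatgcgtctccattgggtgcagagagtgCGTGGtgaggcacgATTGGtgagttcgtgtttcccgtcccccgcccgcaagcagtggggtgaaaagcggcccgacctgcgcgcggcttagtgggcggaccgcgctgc
*Dnajb9*: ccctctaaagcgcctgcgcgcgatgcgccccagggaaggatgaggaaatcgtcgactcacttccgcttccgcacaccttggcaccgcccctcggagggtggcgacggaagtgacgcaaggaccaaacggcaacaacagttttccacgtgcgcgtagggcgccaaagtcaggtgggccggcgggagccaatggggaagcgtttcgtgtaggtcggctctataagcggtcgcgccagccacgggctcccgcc

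These stretches cover chr2:34771840-34772089 on the plus strand, chr10:86705445-86705694 on the minus strand and chr12:44210069-44210318 on the minus strand. Each match is a run of letters in the reference and was not shown here to be bound.

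The arrays were checked before the values were read. Of the 19 probes, 18 were well above background in the mouse channel on 48 of 48 arrays and 1 *Dnajc3* probe on 47, and none was saturated. Between 55.1% and 66% of spots were well above background on a liver array and between 66.8% and 73.7% on a colon array, and the number of arrays limits the precision. Hepatocyte markers, averaged over 7 genes, lay between 1.54 and 2.3 in livers and between −4.17 and −3.54 in colons, as the tissue labels state. The study's methods describe the mice as male, yet RNA of *Xist*, made from the inactive X chromosome of females, was high (log2 Cy3 signal above 9) on 1 liver array, HL replicate 2, and on 6 colon arrays. The Y-linked gene *Eif2s3y* was low on that liver array (6.29) and on colon arrays LL 1, LL 3 and HL 5 (7.37, 6.38 and 6.3). On colon arrays HH 1, HH 5 and LL 5 it measured 10.7, 10.09 and 11.17 beside high *Xist*, and the cause was not tested. None of the 6 was an LH colon. LL liver replicate 6 measured 8.55 for *Xist* and 10.63 for *Eif2s3y*. It stayed under the limit of 9 and so was not left out with the mice with *Xist*. All 10 pancreatic acinar markers were above background on every liver array, with a mean level between −3.13 and −1.84 in every liver except HL replicate 1, where it was 1.3. Arrays of 4 samples, HH liver 2, HL livers 5 and 6 and HH colon 1, were compressed by the background correction until their local background was repaired. Each slide held 1 array of each of the 4 groups of 1 tissue, and tissues were scanned on different days, so tissue and slide set cannot be told apart.

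Levels in the liver differed from those in the colon for most of the genes. Of the 19 probes, 13 passed the study's threshold (FDR < 0.05 and more than 1.5-fold, in limma) and all 13 were higher in the liver, while 30.4% of all probes passed in either direction. *Hspa5* lay between −0.09 and 1.38 in the 23 livers and between −1.31 and −0.29 in the 24 colons, with no overlap, a difference of 1.33 ± 0.11 (SE, adjusted *p* = 2.378e-15 in limma). It was the only 1 of the 10 brightest probes without overlap. Of the 19 probes, 4 had no overlap, all higher in the liver, beside 4578 higher and 4958 lower of 41171 probes. *Creld2*, which encodes a disulfide isomerase induced by ER stress, was higher in the liver by 1.31 ± 0.13. *Hspa5* and *Creld2* both lay more than 2-fold higher in the liver than in the colon, relative to the same reference.

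The other exchange factor, co-chaperones and chaperones followed. *Hyou1*, the large chaperone that exchanges nucleotide on BiP, was higher in the liver by 1.13 ± 0.15, *Hsp90b1*, the HSP90 of the ER lumen, by 1.05 ± 0.09 and *Dnajb9*, a J-domain protein induced by IRE1 signalling, by 1.02 ± 0.08. *Sdf2l1*, which keeps BiP clients soluble together with *Dnajb11*, was higher by 0.88 ± 0.14 and *Dnajc3*, the J-domain protein P58IPK, by 0.81 ± 0.09. *Dnajb11* (0.45 ± 0.09) and *Calr* (0.54 ± 0.1) were higher with adjusted *p* = 8.24e-06 and 3.625e-06 in limma but stayed under 1.5-fold. The lectin *Canx* stood apart from the rest, since its brightest probe was lower in the liver by 0.53 (SE 0.09, interval −0.7 to −0.36) and its other probes differed by −0.1 ± 0.05 and 0.13 ± 0.11. Median centring in place of loess moved the median of all probes in this comparison from 0.01 to 0.22, while the median of the 10 genes went the other way, from 0.95 to 0.41, and 8 probes passed the threshold.

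**Figure D1:**
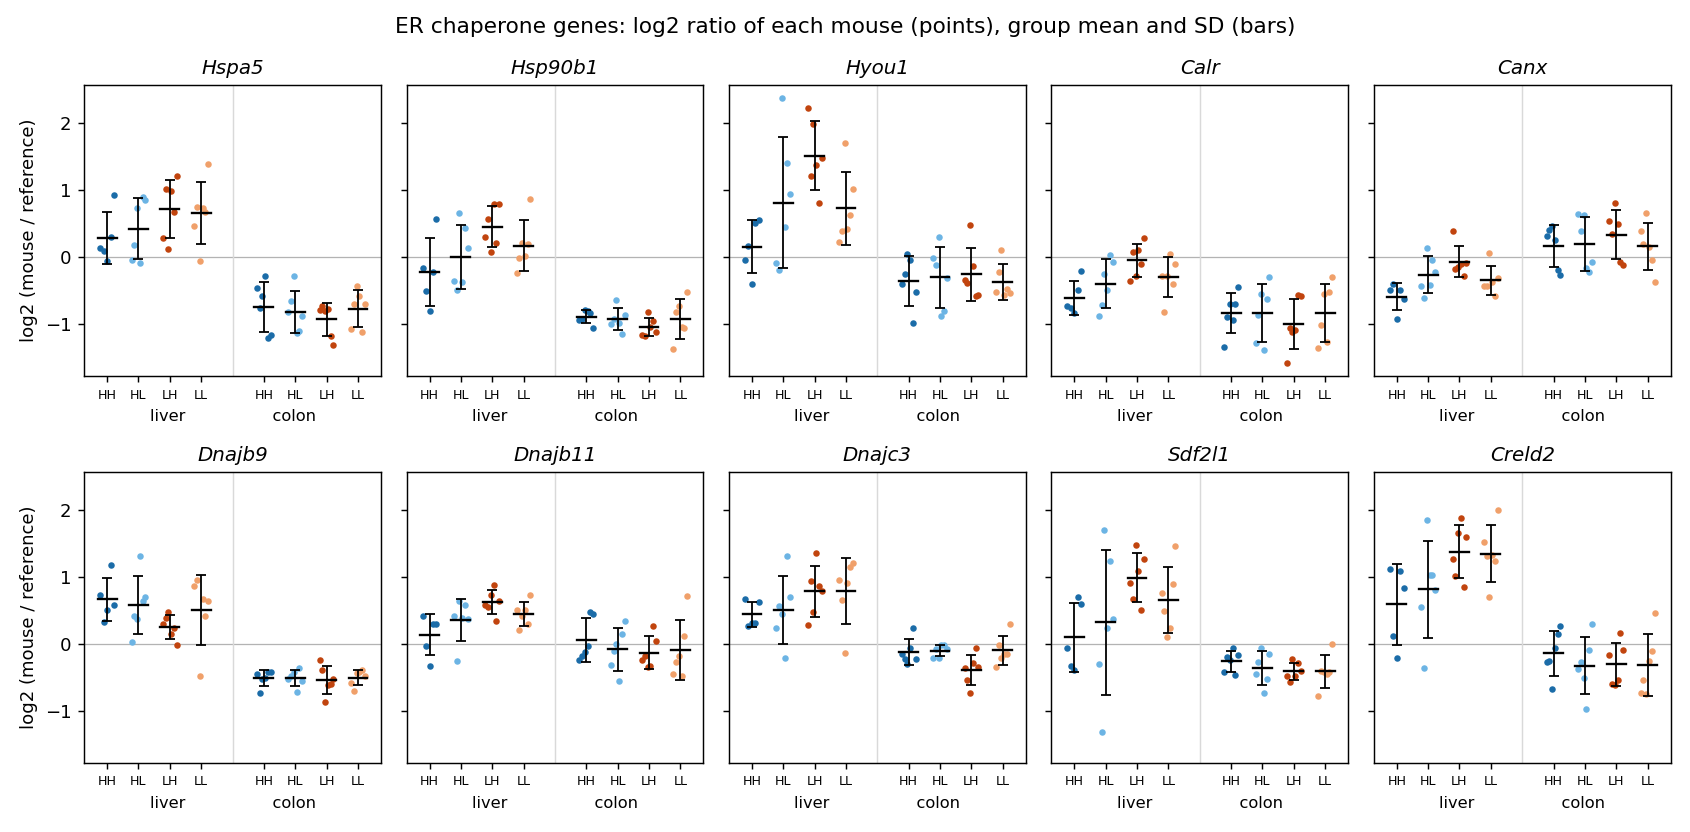
Log2 ratio of mouse over reference (y axis) for the brightest probe of each of the 10 genes in liver and colon of the HH, HL, LH and LL groups (x axis), with a point per mouse and bars for the group mean and SD. Liver points lie above colon points for most genes, and in *Hyou1* the 6 LH livers lie above the 5 HH livers.

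In the liver, dam diet was compared first in pups weaned onto diet H (HH *vs.* LH), which asks what diet L before weaning left behind in mice that then ate diet H. In this contrast, which chose the genes, 9 of 10 were higher in LH, 4 of them by more than 1.5-fold, with a median difference of 0.54 against −0.01 over all probes. Of the 19 probes, 5 lay past 1.5-fold higher, where 0.947% of all probes did, and 3 had groups that did not overlap, where 0.7% did. Since the contrast chose the genes, nothing is read from these shares. Over all probes none passed FDR < 0.05 with 1.5-fold in this contrast in limma, where the lowest adjusted *p* was 0.1202 and 12% of probes had an unadjusted *p* under 0.05. In bulk tissue, fewer cells of a type and less RNA per cell cannot be told apart.

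The nucleotide exchange factor *Hyou1* had the largest difference of the 10 genes. The HH livers measured −0.04, 0.16, −0.41, 0.5 and 0.55, and the 6 LH livers ran from 0.81 through a median of 1.42 to 2.22. Every LH liver was above every HH liver, and the difference was 1.36 ± 0.37 (SE), or 2.57-fold. On each of the 6 slides the LH array was above the HH array, by 0.26 to 2.55, but slides 3 and 6 carried the same HH mouse, so counts over liver slides rest on 5 HH mice.

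Among the chaperones that bind unfolded chains, *Hspa5* measured 0.14, 0.09, −0.06, 0.29 and 0.93 in HH livers and from 0.12 (median 0.83) to 1.21 in LH livers. The groups overlapped, through the HH liver at 0.93 and through LH livers 3 and 1 at 0.12 and 0.28, and the difference was 0.44 ± 0.25. *Hsp90b1* measured −0.17, −0.51, −0.8, −0.23 and 0.57 in HH and from 0.07 (median 0.43) to 0.79 in LH, a difference of 0.68 ± 0.24, and its other probe gave 0.6 ± 0.3. The same HH liver, replicate 5, was the highest of its group for *Hspa5*, *Hsp90b1*, *Hyou1* and *Calr*, and the other 4 HH livers were at or below 0.29 for *Hspa5* and below every LH liver for *Hsp90b1*.

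The lectin chaperones were both higher in LH. *Calr* measured −0.73, −0.76, −0.83, −0.5 and −0.21 in HH livers and from −0.36 (median −0.01) to 0.28 in LH livers, a difference of 0.56 ± 0.17 that its other probe gave as 0.47 ± 0.23. *Canx* measured −0.49, −0.41, −0.93, −0.5 and −0.63 in HH and from −0.29 (median −0.12) to 0.38 in LH, a difference of 0.52 ± 0.14. For *Canx* no LH liver fell into the HH range, neither in the brightest probe nor in a further probe with a difference of 0.19 ± 0.1. The remaining probe gave 0.53 ± 0.24 with overlapping groups. For both lectins LH was above HH on 6 of 6 slides (5 HH mice), by 0.1 to 1.17 for *Calr* and by 0.24 to 0.92 for *Canx*.

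Of the J-domain partners of BiP, *Dnajb11* measured 0.42, −0.03, −0.33, 0.29 and 0.3 in HH livers and from 0.34 (median 0.6) to 0.88 in LH livers, a difference of 0.49 ± 0.15 with 1 HH liver inside the LH range. *Dnajc3* measured 0.67, 0.27, 0.31, 0.31 and 0.62 in HH and from 0.28 (median 0.82) to 1.36 in LH, a difference of 0.35 ± 0.24. Its 3 other probes gave 0.29 ± 0.12, 0.27 ± 0.23 and −0.09 ± 0.24, so the probes of this gene disagreed in sign. *Dnajb9* was the exception among the 10 genes. Its brightest probe measured 0.72, 0.33, 0.51, 1.18 and 0.58 in HH and from −0.02 (median 0.26) to 0.47 in LH, a difference of −0.41 ± 0.22, with LH above HH on 1 of 6 slides (5 HH mice), while its other 2 probes gave 0.07 ± 0.19 and 0.12 ± 0.22.

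The 2 remaining partners varied widely between HH mice. *Sdf2l1* measured −0.07, −0.34, −0.39, 0.69 and 0.59 in HH livers and from 0.51 (median 1) to 1.48 in LH livers, a difference of 0.89 ± 0.38 or 1.854-fold. *Creld2* measured 1.11, 0.11, −0.21, 1.09 and 0.83 in HH and from 0.85 (median 1.43) to 1.88 in LH, a difference of 0.79 ± 0.31 or 1.725-fold. HH replicates 4 and 5 reached into the LH range for *Sdf2l1*, and HH replicates 1 and 4 for *Creld2*.

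Averaged over the 10 genes, HH livers ran from −0.31 to 0.41 and LH livers from 0.41 to 0.85. The lowest HH liver, replicate 3, was also the highest of its group for the acinar markers at −1.84, and without it and HL replicate 1 the median difference of the 10 genes was 0.47 in place of 0.54, with 3 genes past 1.5-fold. Without the 4 compressed arrays the median stayed at 0.54, and the liver with *Xist* was in neither group. Other gene lists differed in the same contrast. All 9 clock genes of the *Dbp* phase were higher in LH (median 0.67, 5 past 1.5-fold), with a mean level of −0.38 to 1.28 in HH livers and 0.68 to 1.67 in LH livers, and all 5 of the *Arntl* phase were lower (median −0.32). The *Dbp* phase was not particular to LH livers, since all 9 genes were also above HH in HL livers (median 0.67) and LL livers (median 0.47). Against HH colons, 8 of 9 were higher in LH (median 0.54), 9 in HL (median 0.48) and 9 in LL (median 0.23). In HH *vs.* LH livers, all 7 hepatocyte markers were higher (median 0.23) and all 6 Kupffer cell markers lower (median −0.31). Of the fasting genes 4 of 5 measured were higher (median 0.33, 1 past 1.5-fold) and of the refeeding genes 3 of 7 (median −0.06). All 10 acinar markers were lower (median −0.39, mean level −2.76 to −1.84 in HH and −3.13 to −2.63 in LH). Their part in the differences of the chaperone genes was not tested.

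The same change of dam diet was then tested in pups weaned onto diet L (HL *vs.* LL), in 12 livers outside the contrast that chose the genes. Earlier results of these data were known at that choice, so these livers were not a blind test. None of the 19 probes passed FDR < 0.05 with 1.5-fold in limma, and neither did any other probe (0%). At an unadjusted *p* under 0.05 there was 1 probe of 19, against 3.08% of all probes. It was the dimmer *Hsp90b1* probe, with a difference of 0.65 ± 0.29 and an unadjusted *p* of 0.03248 (adjusted *p* = 0.9998 in limma). *Hyou1* ran from −0.2 (median 0.69) to 2.37 in HL livers and from 0.23 (median 0.52) to 1.7 in LL livers, a difference of −0.08 ± 0.35 with an interval of −0.81 to 0.64. The HL livers spanned the widest range of *Hyou1* among the 8 groups, since replicates 3 and 5 exceeded 1 while replicates 1 and 2 were below 0.

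*Hspa5* ran from −0.09 (median 0.45) to 0.89 in HL livers and from −0.06 (median 0.7) to 1.38 in LL livers, a difference of 0.23 ± 0.24 (interval −0.26 to 0.72). *Creld2*, from −0.37 (median 0.91) to 1.85 in HL and from 0.69 (median 1.32) to 1.99 in LL, had the largest difference of the brightest probes at 0.53 ± 0.29 (interval −0.08 to 1.14, unadjusted *p* = 0.08359 in limma). Groups overlapped for each of the 10 genes, and 7 of 10 were higher in LL with a median of 0.14. The remaining 7 genes differed by −0.08 to 0.34, among them *Sdf2l1* by 0.34 ± 0.36, *Dnajc3* by 0.29 ± 0.23 and *Canx* by −0.08 ± 0.13. HL replicate 2, the liver with *Xist*, had the lowest mean over the 10 genes of all HL livers at −0.28, and without it the median difference between HL and LL was 0.02. Without the compressed arrays, HL replicates 5 and 6 among them, that median was 0.3 and 3 of 19 probes had an unadjusted *p* under 0.05. The acinar markers were also lower in LL by group means (10 of 10, 9 past 1.5-fold). Their level was 1.3 in HL replicate 1, while the group medians of that level were −2.68 in HL and −2.86 in LL. The median of the chaperone genes without the 2 livers highest for these markers was 0.1.

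The other chaperones and partners in these livers showed the same overlap. *Hsp90b1* ran from −0.5 (median −0.12) to 0.66 in HL and from −0.24 (median 0.1) to 0.86 in LL, *Calr* from −0.88 (median −0.38) to 0.03 and from −0.82 (median −0.28) to 0.05, and *Canx* from −0.61 (median −0.33) to 0.13 and from −0.59 (median −0.4) to 0.06. *Dnajb11* ran from −0.26 (median 0.4) to 0.64 in HL and from 0.2 (median 0.46) to 0.73 in LL, and *Dnajb9* from 0.02 (median 0.52) to 1.31 and from −0.49 (median 0.65) to 0.95. In both of these the lowest mouse, HL replicate 2 for *Dnajb11* and LL replicate 3 for *Dnajb9*, stood away from the rest of its group. *Sdf2l1* had the widest spread, from −1.32 (replicate 2) to 1.69 (replicate 3) in HL and from 0.1 to 1.46 in LL.

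Contrasts of the livers that share the HH or the LH mice with the choice are given as values only. Against HH, the HL livers were higher for 9 of the 10 genes with a median of 0.22, and the LL livers for 9 with a median of 0.36. *Hyou1* differed by 0.66 ± 0.37 (HL) and 0.58 ± 0.37 (LL) and *Creld2* by 0.76 ± 0.31 (LL). LL livers were below LH livers for 8 of the 10 genes (median −0.22), with *Hyou1* lower by 0.78 (SE 0.35). The levels of *Hyou1* thus ran from HH (0.15 ± 0.4, SD, n = 5) to LH (1.51 ± 0.52, SD, n = 6), and HL and LL lay between them with medians of 0.69 and 0.52.

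In the colon the differences with diet were small. For HH *vs.* LH, the difference ran from −0.27 to 0.17 over the 10 genes with a median of −0.16, 8 of 10 were lower in LH, and no probe passed FDR < 0.05 with 1.5-fold (lowest adjusted *p* = 1 in limma). At an unadjusted *p* under 0.05 there was 1 of 19 probes, against 3.24% of all probes. *Hyou1* ran from −0.99 (median −0.33) to 0.05 in HH colons and from −0.59 (median −0.36) to 0.48 in LH colons, a difference of 0.11 ± 0.2 (interval −0.31 to 0.53). *Hspa5* ran from −1.21 (median −0.67) to −0.29 in HH and from −1.31 (median −0.79) to −0.73 in LH, a difference of −0.19 ± 0.17 (interval −0.53 to 0.16). Neither gene had groups that separated.

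*Dnajc3* was the probe with an unadjusted *p* under 0.05. It ran from −0.31 (median −0.19) to 0.23 in HH colons and from −0.74 (median −0.36) to −0.07 in LH colons, a difference of −0.27 ± 0.11, with LH below HH on 6 of 6 slides. Its unadjusted *p* was 0.01955 (adjusted *p* = 1 in limma). Its 3 other probes did not pass that threshold. Their means in HH and LH colons were −0.15 and −0.15 for the next brightest, then −0.09 and −0.2, and 0.05 and −0.17. The brightest *Hsp90b1* probe was also lower in LH on 6 of 6 slides, by 0.04 to 0.27, with a difference of −0.16 ± 0.11 (interval −0.38 to 0.06). In the other *Hsp90b1* probe, LH replicate 2 (−0.53) lay above HH replicate 2 (−0.76) of the same slide. The means of that probe were −0.59 in HH and −0.71 in LH. Other pairs with the LH colons gave *Dnajc3* 0.29 ± 0.11 for LH *vs.* LL and −0.29 ± 0.11 for HL *vs.* LH (unadjusted *p* = 0.01046 and 0.01145, adjusted *p* = 0.9999 in limma). Those pairs share the LH colons with HH *vs.* LH, and in each of them 1 of 19 probes had an unadjusted *p* under 0.05, against 2.81% and 2.95% of all probes. Leaving out the 6 colons with *Xist*, or HH colon 5 or LH colon 3 alone, left no probe under that threshold in HH *vs.* LH.

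The other genes overlapped between HH and LH colons. *Calr* ran from −1.34 (median −0.8) to −0.45 in HH and from −1.58 (median −1.08) to −0.57 in LH, a difference of −0.16 ± 0.21, and *Canx* from −0.27 (median 0.28) to 0.46 and from −0.12 (median 0.42) to 0.81, a difference of 0.17 ± 0.19. *Dnajb11* ran from −0.24 (median −0.08) to 0.47 in HH and from −0.35 (median −0.22) to 0.27 in LH, and *Creld2* from −0.67 (median −0.17) to 0.27 and from −0.61 (median −0.36) to 0.16. *Sdf2l1* lay between −0.78 and 0 and *Dnajb9* between −0.87 and −0.24 over all 24 colons, a narrower range than either had in the livers. Averaged over the 10 genes, the colon groups were −0.37 ± 0.06 (HH), −0.41 ± 0.2 (HL), −0.47 ± 0.05 (LH) and −0.42 ± 0.18 (LL; SD, n = 6 each), and the liver groups 0.09 ± 0.3 (HH, n = 5), 0.31 ± 0.46 (HL), 0.66 ± 0.15 (LH) and 0.46 ± 0.22 (LL; SD, n = 6 each).

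In pups weaned onto diet L (HL *vs.* LL) the colon differences ran from −0.06 to 0.04, and 0 of 19 probes had an unadjusted *p* under 0.05, against 1.02% of all probes. For HH *vs.* HL and HH *vs.* LL the counts were also 0 of 19, against 1.46% and 1.72%. Over the 6 pairs of colon groups no probe of these genes passed FDR < 0.05 with 1.5-fold in limma, and their lowest adjusted *p* was 0.9999.

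Side by side, the liver and colon differences for HH *vs.* LH were 1.36 and 0.11 for *Hyou1*, 0.89 and −0.15 for *Sdf2l1*, 0.79 and −0.17 for *Creld2*, 0.68 and −0.16 for *Hsp90b1*, and 0.44 and −0.19 for *Hspa5*. The liver exceeded the colon by 1.26 ± 0.43 for *Hyou1*, 1.04 ± 0.4 for *Sdf2l1* and 0.95 ± 0.38 for *Creld2*, and it was the higher of the 2 for 9 of 10 genes, with *Dnajb9* the exception at −0.38 ± 0.24. The liver side of these values chose the genes, so they were not tested. For HL *vs.* LL, a contrast that did not choose the genes, the difference between tissues was tested by an interaction term. An unadjusted *p* under 0.05 in limma was reached by 0 of 19 probes, against 1.41% of all probes. There, *Hyou1* differed between tissues by −0.02 ± 0.42 (interval −0.86 to 0.82) and *Creld2* by 0.53 ± 0.37 (interval −0.22 to 1.28).

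**Figure D2:**
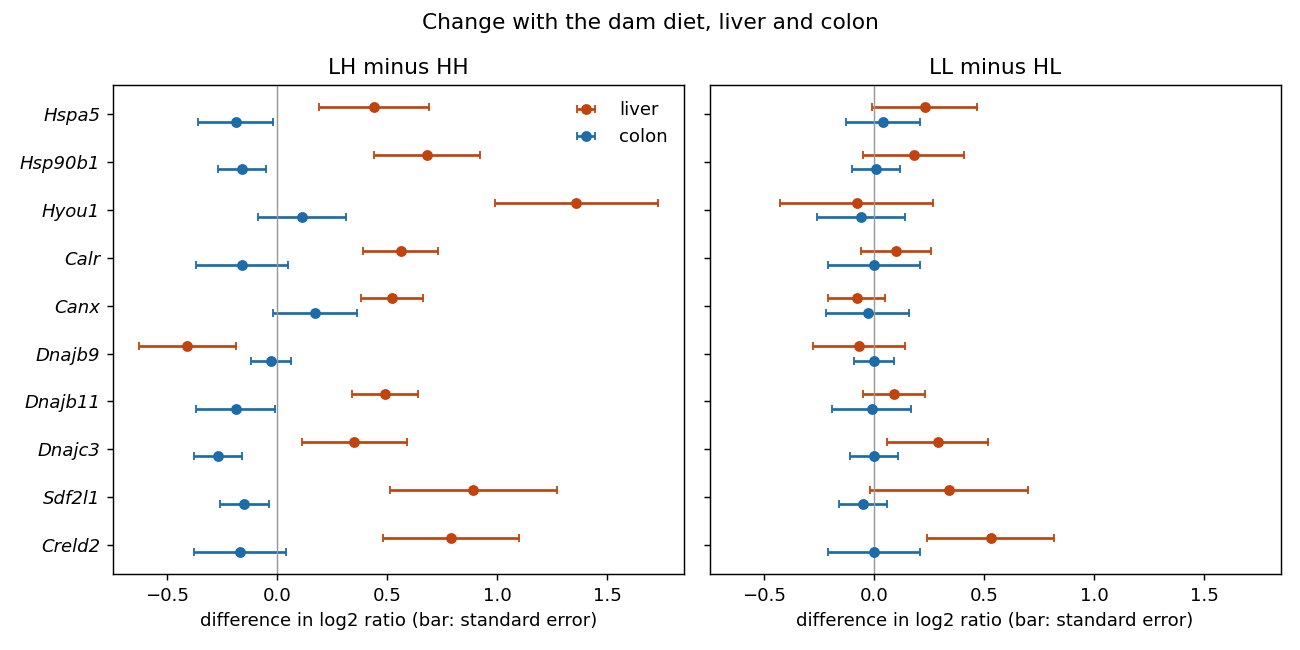
Difference in log2 ratio with the dam diet (x axis, bar for the standard error) for the brightest probe of each of the 10 genes (y axis), in liver and colon, for LH minus HH and for LL minus HL. In LH minus HH the liver values run from −0.41 to 1.36 and the colon values from −0.27 to 0.17.

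Genes that work with these chaperones were read from lists of the ER folding machinery. For HH *vs.* LH in the liver, 12 of 12 genes of ER-associated degradation, which returns misfolded proteins to the cytosol, were higher in LH (3 past 1.5-fold, median 0.35), with *Derl3*, a channel component, at 1.56 ± 0.65 and *Herpud1* at 0.71 ± 0.26. Of the protein disulfide isomerases 7 of 9 were higher (median 0.53), led by *Pdia4* at 1.02 ± 0.32. Of the sensors and factors of the unfolded protein response 11 of 12 were higher (median 0.16). *Xbp1*, the factor downstream of IRE1, differed by 0.84 ± 0.3 and *Atf6* by 0.36 ± 0.13, while *Ddit3*, the PERK-branch factor CHOP, differed by −0.36 ± 0.17.

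The other lists had medians nearer to 0 than those of ER-associated degradation and the disulfide isomerases. Of the calnexin cycle enzymes 6 of 7 were higher (median 0.18), of the translocon and signal peptidase 10 of 13 (median 0.22), and of the other folding factors of the ER lumen 4 of 8 (median 0.01), where *Manf*, a BiP-binding factor, differed by 0.49 ± 0.2. Cytosolic chaperones, which the ER response does not control, were higher in 5 of 10 genes (median −0.06), with *Hspa8* at −0.38 ± 0.24 and *Hsp90aa1* at 0.22 ± 0.26. These values come from the same mice that chose the 10 genes and carry no test.

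In the livers of HL *vs.* LL the medians were −0.03 for ER-associated degradation, −0.04 for the disulfide isomerases and −0.13 for the sensors and factors, in which *Atf6* differed by −0.27 ± 0.13 and *Ddit3* by 0.33 ± 0.16 (unadjusted *p* = 0.04766 and 0.04703, adjusted *p* = 0.9998 in limma). Both thus had the sign opposite to HH *vs.* LH, and the difference between these contrasts was not tested. Cytosolic chaperones were higher in LL in 9 of 10 genes (median 0.27), none past the unadjusted threshold. In the colon, HH *vs.* LH gave medians of −0.01 for ER-associated degradation, −0.03 for the disulfide isomerases, 0.01 for the sensors and factors and −0.18 for the cytosolic chaperones, with *Herpud1* at 0.23 ± 0.07 (unadjusted *p* = 0.004075, adjusted *p* = 1 in limma). No gene of these lists passed FDR < 0.05 with 1.5-fold in limma in HL *vs.* LL livers or in HH *vs.* LH colons.

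**Figure D3:**
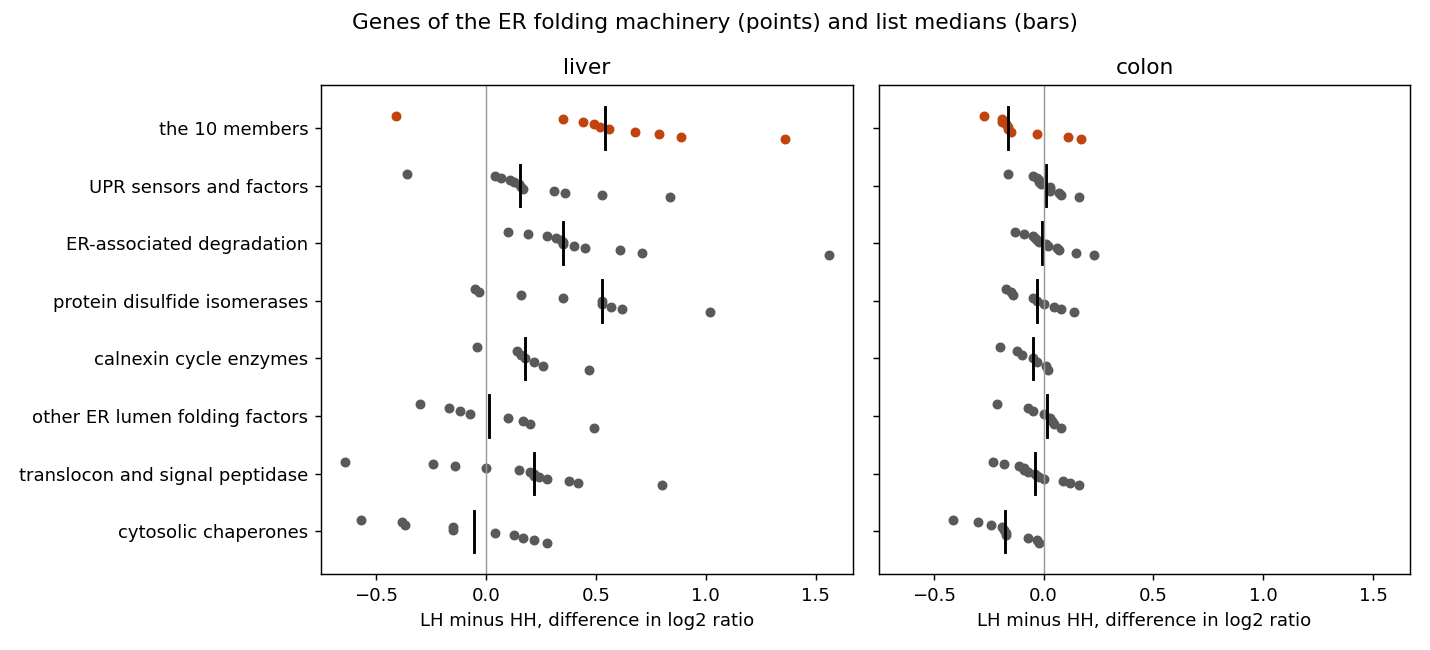
LH minus HH difference in log2 ratio (x axis) of single genes (points) and the list median (bars) for the 10 genes and for 7 lists of the folding machinery (y axis), in liver and colon. In the liver the list medians run from −0.06 for cytosolic chaperones to 0.53 for disulfide isomerases, beside 0.54 for the 10 genes, and in the colon from −0.18 to 0.01.

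The ERSE was also read the other way round, from the element to the genes. Beside the 6 genes above, 17 other genes with an ERSE in the promoter had a named probe, and in HH *vs.* LH livers 12 of 17 were higher in LH with a median of 0.08 and 1 past 1.5-fold, *Derl3*. Of all 14661 genes with a promoter entry 45.7% were higher, with a median of −0.02. In HL *vs.* LL livers 8 of 17 were higher (median −0.01), against 46.1% of all genes. In HH *vs.* LH colons 5 of 17 were higher (median −0.02), against 52.8%, and in HL *vs.* LL colons 10 of 17 (median 0.01), against 49.8%. Among the lists, *Derl3* and *Syvn1* of ER-associated degradation and *Ero1b* and *Pdia6* of the disulfide isomerases held the element.

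How the genes varied together from mouse to mouse was measured after group means were removed, by the correlation of each gene with *Hspa5* in each tissue (18 pairs, permutation test, Benjamini-Hochberg over the 18). Mice were permuted freely across slides, so the permutation p-values do not allow for likeness between arrays of a slide. Across 23 livers, *Hspa5* went with *Hsp90b1* (*r* = 0.8, *rho* = 0.79, adjusted permutation *p* = 0.00018 and 0.00036), *Dnajc3* (*r* = 0.75, *rho* = 0.72, adjusted permutation *p* = 0.00024 and 0.00096), *Calr* (*r* = 0.71, *rho* = 0.74, adjusted permutation *p* = 0.000945 and 0.00096) and *Sdf2l1* (*r* = 0.52, *rho* = 0.55, adjusted permutation *p* = 0.0324 and 0.0211). Without the 2 livers farthest from the median of *Hspa5* these were 0.85, 0.68, 0.78 and 0.43. The smallest unadjusted *p* that 100000 permutations can give, 1e-05, was reached by *Hsp90b1*. With *Hspa5*, *Hyou1* reached *r* = 0.18 and *Canx* *r* = 0.03 in the liver, while these 2 genes reached *r* = 0.84 with each other.

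Across 24 colons, *Hspa5* went with *Hyou1* (*r* = 0.74, *rho* = 0.66, adjusted permutation *p* = 0.00024 and 0.0027) and *Canx* (*r* = 0.69, *rho* = 0.57, adjusted permutation *p* = 0.0013 and 0.0146), and without the 2 farthest colons *r* was 0.7 and 0.63. *Hsp90b1* reached *r* = 0.49 (adjusted permutation *p* = 0.038) with *rho* = 0.43 (adjusted permutation *p* = 0.0968). With slide means removed as well, *r* with *Hspa5* in the colon was 0.49 for *Hyou1* and 0.27 for *Canx*, while *Creld2* went from −0.3 to 0.78, *Dnajb11* from −0.32 to 0.71, *Sdf2l1* from 0.4 to 0.74 and *Calr* from −0.19 to 0.62. In the liver the same step left *Hsp90b1* at 0.8, *Dnajc3* at 0.7 and *Calr* at 0.62, and raised *Creld2* from 0.45 to 0.68 and *Dnajb11* from 0.37 to 0.63.

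Over all 45 pairs of the 10 genes the median *r* was 0.45 in the liver, with 40 pairs above 0, and 0.18 in the colon, with 28 above 0. With slide means removed the medians were 0.46 and 0.44, with 40 pairs above 0 in each tissue. Some pairs were high under both settings, such as *Hyou1* with *Canx* (0.84 and 0.93 in liver, 0.83 and 0.8 in colon) and *Dnajb11* with *Creld2* (0.89 and 0.84 in liver, 0.85 and 0.7 in colon). *Dnajb9* had the lowest correlation with the mean of the 10 genes in the liver (*r* = 0.24), and *Canx* in the colon (*r* = 0.069). These are descriptions over arrays that share slides and a reference, and no such median was taken over pairs of other genes.

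**Figure D4:**
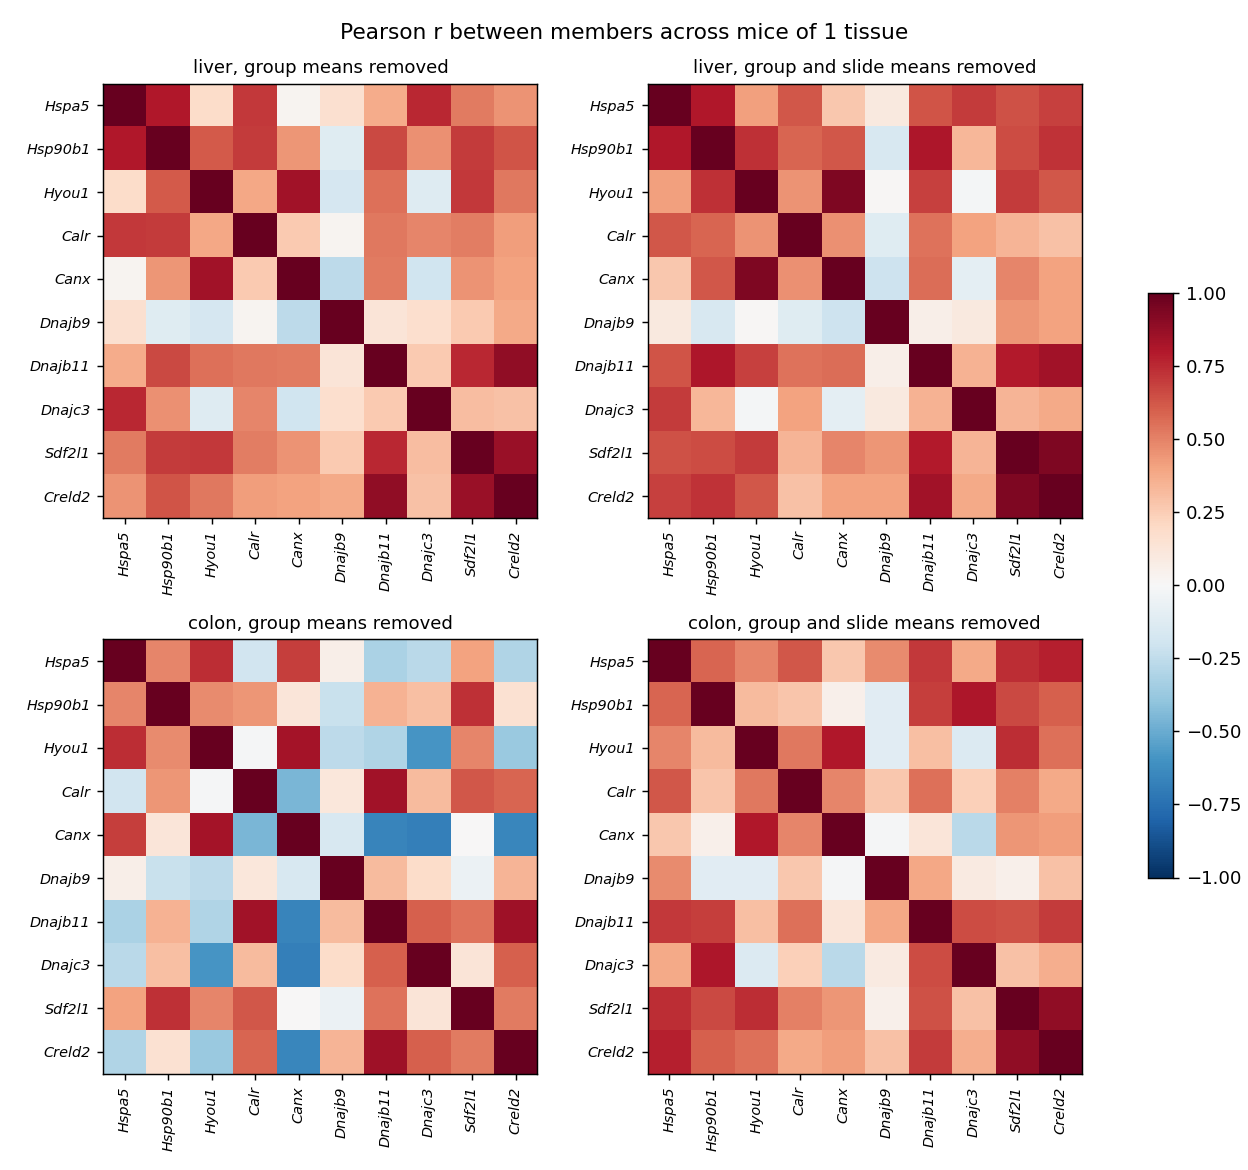
Pearson *r* (colour, from −1 to 1) between each pair of the 10 genes (both axes) across 23 livers and 24 colons, with group means removed (left) and with group and slide means removed (right). In the colon 28 of 45 pairs are above 0 on the left and 40 of 45 on the right, while in the liver 40 of 45 are above 0 on both sides.

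The named genes outside the 10 whose group-centred values were most like the mean of the 10 were, across 23 livers, *Tbcb* (*r* = 0.83), *Manf* (0.821), *Syvn1* (0.807), *Ero1b* (0.784) and *Cnpy3* (0.783). Across 24 colons they were *Mlec* (0.779), *Gemin6* (0.769), *Nup160* (0.761), *Mrpl15* (0.753) and *Slc18b1* (0.73). The 5 liver genes and the 5 colon genes had no gene in common.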

How the data were processed

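Liver and colon RNA of each mouse (Cy3) and a common reference RNA (Cy5) were hybridised to Agilent whole-genome arrays in a single dye orientation. The authors deposited scanner files of Feature Extraction (version 10.10.1.1 per the file headers), whose spot and local background intensities are linear, and a table of normalised log2 values (reference against mouse) that they made by global loess in R 3.0.2 with limma, per the submitters' processing notes. Log2 values here were recomputed from the deposited intensities and tested in limma 3.58.1 (R 4.3.3). Local background above its own spot was set to the array's median, normexp (offset 50) and global loess followed, control and flagged spots were left out, and spots of a probe were averaged. Without background correction the recomputed ratios and the deposited log2 table correlated at 0.9997 or more on every array, after its sign was turned.

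Groups came from the labels. All 4 groups of a tissue entered 1 fit, and all 8 groups the comparison of tissues. A probe was called at FDR < 0.05 and more than 1.5-fold, and an unadjusted *p* under 0.05 gave a further count. Errors beside differences are standard errors, intervals are 95%, and p-values measure the spread between mice, whose litters were not given. Correlations used 100000 permutations (SciPy 1.17.1). The 2 arrays of the shared HH mouse correlated at 0.805 in their deviations from the group mean, against at most 0.261 for other HH pairs. Replicate numbers follow the slides, and deviations of arrays on the same slide correlated with a median of 0.167 in liver (−0.323 to 0.67) and 0.36 in colon (0.088 to 0.722). All 10 genes are named by their brightest probe, and from each list only the genes marked as leads, whatever their values, plus the 5 genes most like the mean. The members, the lists and the leads were chosen with earlier results of these data known. The fits were tested on simulated data. Promoters are RefSeq sequences of GRCm38.p6. The alternatives tried were other background and dye corrections, the deposited table, a filter on dim probes, slide as a block, other sets of groups or mice in the fit, all probes of a gene, and each mouse left out.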

Additional observations from a re-analysis of the deposited data

Results flagged for a closer look

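Within 8 of 104 groups of mice examined (13 measures in 8 groups of 5 or 6 mice), the highest or lowest mouse lay apart from the others by Dixon's gap, which chance gives in about 1 of 20 groups. Among the genes these were *Canx* in LH liver replicate 1 (0.38, others −0.29 to −0.09), *Dnajb9* in HH colon replicate 2 (−0.73, others −0.52 to −0.42), *Dnajb9* in LL liver replicate 3 (−0.49, others 0.41 to 0.95) and *Dnajb11* in HL liver replicate 2 (−0.26, others 0.37 to 0.64), the liver with *Xist*. The mean of the 10 genes lay apart in LL liver replicate 6 (0.88, others 0.22 to 0.45). For the pancreatic acinar markers, whose level is a mean log2 ratio, the mice were HL liver replicate 1 (1.3, others −3.13 to −2.18), HL colon replicate 4 (−2.46, others −3.03 to −2.93) and LH colon replicate 3 (−2.58, others −2.92 to −2.81).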

How the results depend on the processing

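In HH *vs.* LH livers each of the 10 genes kept its sign under all 14 alternatives and with each mouse left out, and the median ran from 0.47 to 0.66 over the alternatives and from 0.47 to 0.63 with each mouse left out. The number of genes past 1.5-fold was 7 under median centring and 3 to 6 with a mouse left out, against 4. The slide as a replicate block gave a median of 0.59 there, 0.14 for HL *vs.* LL livers, −0.16 for HH *vs.* LH colons and 0.93 for liver *vs.* colon, and changed no call at FDR and 1.5-fold. Blocked, the probes at an unadjusted *p* under 0.05 were 2 of 19 in HL *vs.* LL livers and 3 of 19 in HH *vs.* LH colons. The planned fit with the mouse as a random term beside the slide could not be fitted in the liver, where a single pair of arrays shares a mouse, so the block was used without that term, a choice made after seeing the data. The alternative without the 2 livers highest for acinar markers was also added then, as was the removal of slide means from the correlations.

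With a mouse left out, the median ran from 0.02 to 0.25 for HL *vs.* LL livers, −0.18 to −0.1 for HH *vs.* LH colons, −0.1 to 0.06 for HL *vs.* LL colons and 0.91 to 0.99 for liver *vs.* colon. No diet comparison that was tested called a probe of these genes under any alternative. Counts at an unadjusted *p* under 0.05 ran from 0 to 4 in HL *vs.* LL livers with a mouse left out, with 0 without HL 4, LL 4, LL 5 or LL 6 and 4 without LL 3, and from 0 to 3 in HH *vs.* LH colons over the alternatives and with a mouse left out (0 without HH 5 or LH 3, 3 without HH 1 or LH 5). For liver *vs.* colon, median centring gave a median of 0.41 and 8 probes past the threshold, with *Dnajb9* (0.46), *Dnajc3* (0.31) and *Sdf2l1* (0.37) no longer called and *Canx* called lower (−0.94). The median *r* over the 45 pairs in the colon was 0.48 with the processed signals, 0.49 under median centring and 0.44 with slide means removed (the replicate block), against 0.18, and with a mouse left out it ran from 0.15 to 0.31 in the colon and 0.4 to 0.48 in the liver. The cause was not tested. With 5 or 6 mice per group, smaller differences between diets lie within the intervals given.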
